A study of Homo sapiens with 9 samples.

Results

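The data described are the expression profile of untreated NCI-H716 cells, taken from the 3 arrays labelled as controls without treatment among the 9 arrays of the series. Those 3 arrays were chosen by their labels alone, and the profile is described with no comparison between groups and no test. NCI-H716 is an established human colorectal adenocarcinoma line with endocrine features that is widely used as a model of intestinal L cells, which make glucagon-like peptide 1. The other 6 arrays carry a control vector or a vector for mutant YAP and entered only an alternative normalization. The labels give the untreated cells no agent, vector, time or culture condition, and nothing in them says that the 3 RNA samples came from separate cultures, so the spread between arrays may be technical. As a model they are 1 cancer line, and the number of arrays limits the precision of every value below.

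Enteroendocrine cells are scattered hormone-secreting cells of the gut epithelium that arise from the same stem cells as absorptive enterocytes, goblet cells, Paneth cells and tuft cells. Their hormones are made as precursors, cut by prohormone convertases inside dense-core granules together with chromogranins and secretogranins, and released when calcium enters the cell. In L cells the glucagon gene is expressed and its precursor is cut by prohormone convertase 1/3 to glucagon-like peptides 1 and 2, whereas in pancreatic alpha cells prohormone convertase 2 releases glucagon from the same precursor.

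Each value is a log2 signal after background correction and quantile normalization of the 3 untreated arrays, and each gene is represented by its brightest probe. A gene was called above background when that probe exceeded the floor of its array on all 3 arrays, the floor being set from the lower side of the distribution of raw signals. The 3 arrays had median raw intensities of 125.2, 128.8 and 125.5, and their normalized gene values correlated at 0.994 to 0.995 across genes, which are not independent replicates. Of 20211 named genes, 10090 (49.9%) were above background on all 3 arrays, 2123 on 1 or 2 arrays and 7998 (39.6%) on 0 arrays. The median of all named genes was 6.65, the 95th percentile 11.44 and the 99th percentile 13.38, and the median SD over the 3 arrays was 0.11 among genes above background. Probes bind their targets with different strength, so an order of genes is an order of brightness and not of transcript number. A value "above background on 0 arrays" means that no signal was detectable over the floor and does not show that a transcript was absent.

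**Figure D1:**
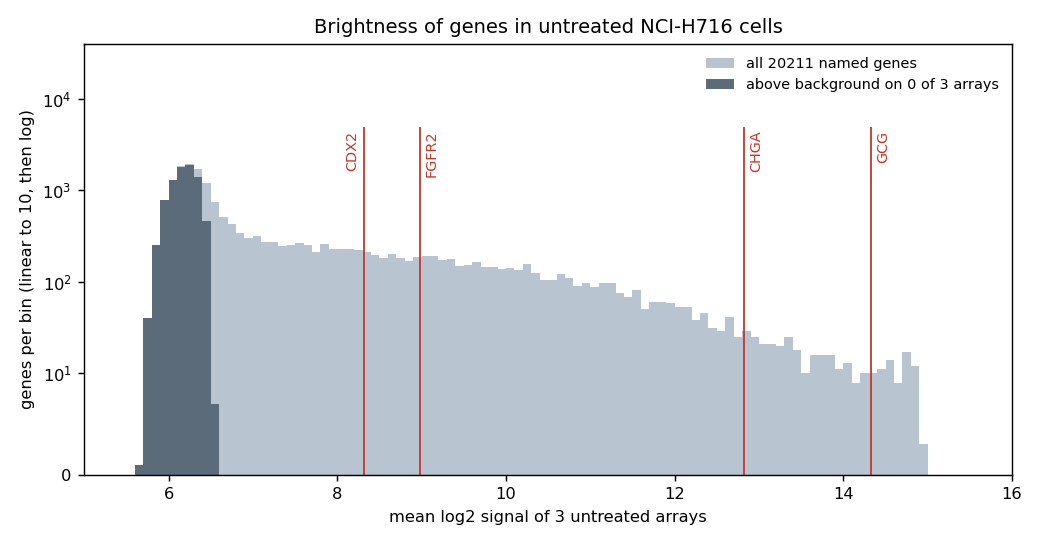
Histogram of the mean log2 signal (x axis, bins of 0.1) of all 20211 named genes, with the 7998 genes above background on 0 of 3 arrays in dark grey. The y axis counts genes per bin, linear to 10 and logarithmic above. Red lines mark CDX2 at 8.32, FGFR2 at 8.98, CHGA at 12.82 and GCG at 14.33, all to the right of the background peak.

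The 4 genes that mark the line were all above background on all 3 arrays. GCG, the glucagon precursor gene, gave log2 signals of 14.53, 14.13 and 14.33 (mean 14.33 ± 0.20 SD, n = 3), which placed it at a brightness percentile of 99.6. CHGA, chromogranin A, gave 12.80, 12.98 and 12.68 (percentile 98.4). FGFR2, a receptor tyrosine kinase for fibroblast growth factors, gave 8.83, 8.86 and 9.25 (percentile 79.0). The intestinal homeobox factor gene CDX2 followed at 8.37, 8.22 and 8.35 (percentile 72.8). The 2 endocrine genes were thus near the top of the range, and FGFR2 and CDX2 lay in its upper middle on every array.

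Markers of the gut endocrine lineage and of colon epithelium were each detected in part, and all marker counts stand beside 49.9% of all genes. Of 12 enteroendocrine markers, 9 were above background on all 3 arrays (CHGA, CHGB, SCG2, SCG3, SCG5, PCSK1, INSM1, RFX6 and GCG), NEUROD1 was above on 2, and PAX6 and PYY were above on 0. Of 11 markers of colon epithelium, 6 were above on all 3 (among them CDX2, EPCAM, CDH17, KRT8 and KRT18) and 5 on 0 (CDX1, CDH1, KRT20, VIL1 and LGALS4). The colon epithelium count was thus near the share of all genes. Among markers of cells that a culture of this line should not hold, 1 of 5 endothelial markers (ESAM), 1 of 5 neuronal markers (STMN2), 3 of 8 blood cell markers (CD79A, CD14 and CD68) and 3 of 6 fibroblast markers (COL1A2, COL3A1 and LUM) were above background. Among the other members of these marker sets, PTPRC, CD3E and SPI1 of blood cells, PECAM1, VWF, CDH5 and KDR of endothelium, DCN and PDGFRB of fibroblasts and ELAVL4, RBFOX3, GAP43 and SLC17A6 of neurons were above background on 0 arrays. Over all 30 gene lists used below, 704 of 707 genes were measured. Of these, 256 (36.4%, beside 49.9% of all genes) were above background on all 3 arrays.

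The proteins of the dense-core granule were the most completely detected list. Of 9 members 8 were above background (88.9%, beside 49.9% of all genes), with a median log2 signal of 10.26. VGF, a granule protein that is itself cut into several peptides, was the brightest at 14.69, 14.80 and 14.77, and it was the only listed gene among the 30 brightest named genes. CHGB, chromogranin B, reached 12.65, 12.37 and 12.55, and SCG2, secretogranin II, 12.45, 12.54 and 12.64. SCG3, a secretogranin that binds CHGA during granule sorting, had a mean of 10.26 ± 0.06. Lower signals came from the vesicle membrane protein gene SYP (8.62 ± 0.07), from SCG5 (7.76 ± 0.04), which encodes the chaperone of prohormone convertase 2, and from the calcium-binding protein gene SCGN (7.41 ± 0.17). The convertase inhibitor gene PCSK1N was above background on 0 arrays.

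Of 10 prohormone processing enzymes, 8 were above background (80%, beside 49.9% of all genes), with a median of 8.59. PCSK1, prohormone convertase 1/3, gave 12.04, 12.30 and 12.40, and its other probe was also above background on all 3 arrays with a mean of 11.44. CPE, the carboxypeptidase that trims basic residues after the cut, gave 11.91, 11.91 and 11.89, and PAM, which amidates peptide ends, had a mean of 10.61 ± 0.13. PCSK2, prohormone convertase 2, was above background on 0 arrays. The L-cell convertase was thus bright and the alpha-cell convertase not detectable over the floor. The general convertase genes were dimmer, with PCSK6 at 8.76 ± 0.18, PCSK7 at 8.42 ± 0.09, PCSK5 at 6.70 ± 0.16 and FURIN at 6.70 ± 0.12, while the carboxypeptidase gene CPD reached 9.51 ± 0.06.

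Few hormone genes accompanied GCG. Of 32 genes of gut and islet peptide hormones, 6 were above background on all 3 arrays (18.75%, beside 49.9% of all genes). A further 7 were above on 1 or 2 and 19 on 0, and the median of 6.26 lay under that of all genes. SST, somatostatin, the inhibitory peptide of D cells, was the next brightest at 12.22, 11.98 and 12.14. It was followed by NMB, neuromedin B, at 8.70 ± 0.16, the vasodilator peptide gene ADM at 8.25 ± 0.18, UCN, urocortin, at 8.21 ± 0.22 and NTS, neurotensin, at 7.21 ± 0.15. GCG and SST therefore stood apart from the other hormone genes on every array, with a gap of more than 3 log2 units below them. Peptide YY (PYY), which L cells often make together with glucagon-like peptides, was above background on 0 arrays, as were INSL5, CCK, GIP, SCT, GAST, MLN, GHRL, POMC, NPY, GRP, PPY, GAL, TAC1, TAC3, PDYN, CARTPT, CRH and ADCYAP1.

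**Figure D2:**
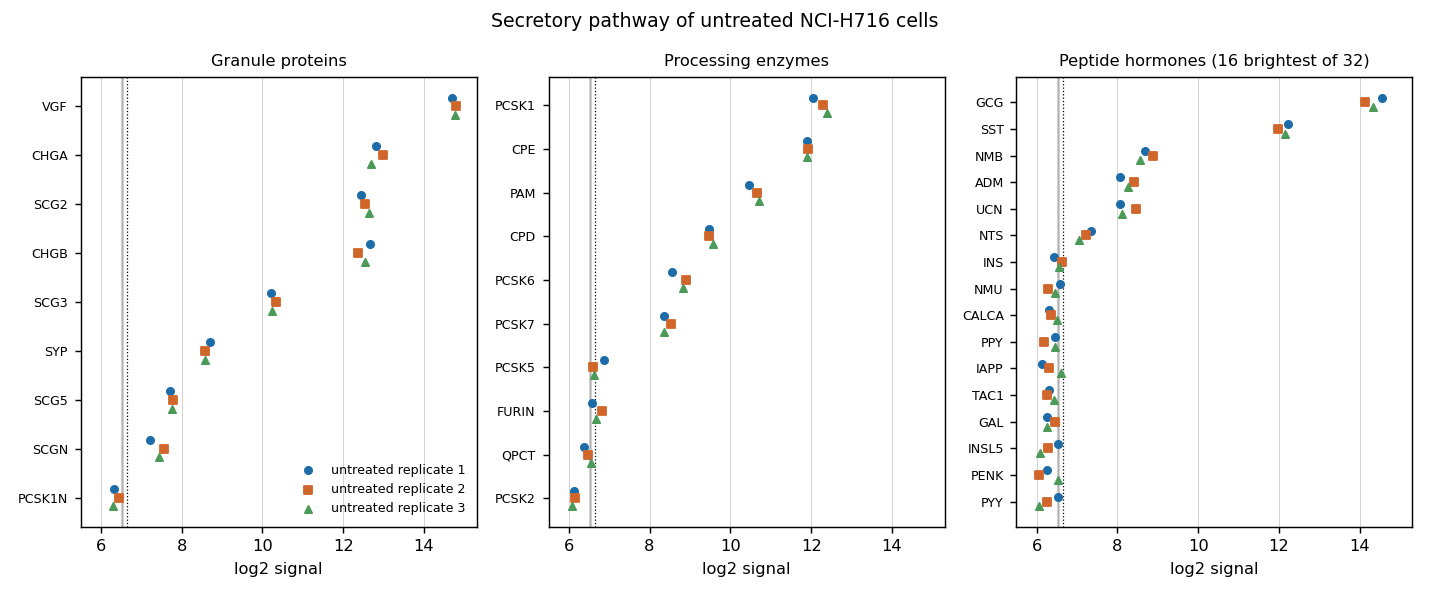
Log2 signal (x axis) of granule protein genes, prohormone processing genes and the 16 brightest of 32 peptide hormone genes on each of 3 untreated arrays, 1 symbol per array. The grey band spans 6.52, the highest mean of a gene above background on 0 arrays, to 6.56, the lowest mean of a gene above on all 3, and the dotted line is the median of all named genes, 6.65. Most granule and processing genes lie far right of the band, whereas past NTS the hormone genes sit on or left of it.

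The promoters of several of these secretory genes hold a cyclic AMP response element, the palindrome TGACGTCA to which CREB proteins bind. RefSeq promoter sequences (GRCh38.p14) were available for 44 of the 51 granule, processing and hormone genes, and 5 held the exact 8 letters within 250 bases before the gene start. GCG, CHGB and SCG2, which were brighter than PCSK1 and SST, were not among these 5 genes. That does not show that they lack the element, since only available sequences and exact matches within 250 bases counted. The 4 stretches of 120 bases that end at the start of a gene above background are shown, with the element in capitals and in the direction of the gene.
CHGA, chr14:92923030-92923149, plus strand: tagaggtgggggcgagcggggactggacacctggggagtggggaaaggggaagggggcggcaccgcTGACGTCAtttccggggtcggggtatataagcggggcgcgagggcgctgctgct
PCSK1, chr5:96433249-96433368, minus strand: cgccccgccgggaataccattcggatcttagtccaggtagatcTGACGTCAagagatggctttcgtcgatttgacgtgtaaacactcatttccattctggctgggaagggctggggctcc
SST, chr3:187670395-187670514, minus strand: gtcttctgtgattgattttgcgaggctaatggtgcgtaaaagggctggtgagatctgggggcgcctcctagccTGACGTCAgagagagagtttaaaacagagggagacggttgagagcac
VGF, chr7:101165570-101165689, minus strand: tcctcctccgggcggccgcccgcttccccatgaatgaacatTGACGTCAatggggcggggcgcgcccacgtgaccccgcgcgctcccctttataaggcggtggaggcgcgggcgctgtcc
The element began 54 bases before the start of CHGA, 77 before PCSK1, 47 before SST and 79 before VGF. Thus 4 of the 20 secretory genes above background with a promoter sequence held it, beside 1 of 18 secretory genes above on 0 arrays (CARTPT). Over all promoters in the table, 578 of 35116 (1.646%) held the letters, and the shares were 3.83% of the 8141 genes above background and 1.56% of the 5332 genes above on 0 arrays. A match describes the sequence only, and factor binding was not measured.

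Serotonin synthesis was incompletely represented. Of 13 genes for amine synthesis and storage, 4 were above background (30.8%, beside 49.9% of all genes). These were MAOA (11.62 ± 0.05) and MAOB (8.27 ± 0.10), which break amines down, DDC (9.68 ± 0.10), which makes serotonin and dopamine from their precursors, and GCH1 (7.52 ± 0.15), which makes the hydroxylase cofactor. TPH1, the rate-limiting enzyme of serotonin synthesis in enterochromaffin cells, the vesicular amine transporter SLC18A2 and the serotonin transporter SLC6A4 were above background on 0 arrays, as were TH, HDC, DBH and SLC18A3.

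Of 33 genes of the machinery of regulated exocytosis, 20 were above background (60.6%, beside 49.9% of all genes), with a median of 6.86 near that of all genes. At the stricter floor of the mode plus 3 lower-side SDs, 16 were above it. STX1A and SNAP25, membrane fusion proteins of the plasma membrane, had means of 10.89 ± 0.10 and 9.93 ± 0.17. The synaptotagmin genes SYT11 and SYT4 reached 10.83 ± 0.09 and 10.69 ± 0.03, the vesicle fusion protein gene VAMP3 9.53 ± 0.11, the vesicle GTPase gene RAB3C 9.23 ± 0.17, the fusion clamp gene CPLX1 9.20 ± 0.11 and the calcium sensor gene SYT1 8.44 ± 0.07. The other 12 members above background (among them UNC13B, SYT7, SYN1, SCAMP5, SV2A, CADPS2, VAMP2, CPLX2, RAB27A, RPH3AL and SYT13) were dimmer than SYT1. RAB3A, RAB3B, RAB3D, CADPS, SV2B, SV2C, SYTL4, BAIAP3 and PTPRN2 were above on 0 arrays, so within the RAB3 family RAB3C was the member with signal.

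Ion channel genes were mostly at background, with 10 of 32 above it (31.25%, beside 49.9% of all genes). CACNA1H, a low-voltage-activated calcium channel, stood out at 11.70, 12.04 and 11.86, and its other probe was also above background on all 3 arrays, with a mean of 8.93. KCNMA1, a calcium-activated potassium channel, reached 9.26 ± 0.20, TRPM4, a calcium-activated cation channel, 8.53 ± 0.25 and KCNH2, a voltage-gated potassium channel, 8.36 ± 0.10. Signals of SCN3B, KCNJ6, TRPC1, KCNK3, CACNA1C and HCN2 ran from 7.48 down to 6.73. Both subunit genes of the ATP-sensitive potassium channel, KCNJ11 and ABCC8, were above background on 0 arrays, as were CACNA1A, CACNA1B, CACNA1E and CACNA1G.

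Of 22 enteroendocrine transcription factor genes, 9 were above background (40.9%, beside 49.9% of all genes), with a median of 6.52. ISL1, a LIM homeodomain factor of endocrine cells, gave 12.37, 12.28 and 12.29. PDX1, the duodenal and pancreatic homeobox factor, gave 11.64, 11.75 and 11.64, although a different probe of the gene was above background on 0 arrays. The means of the next members were 10.14 ± 0.26 for SOX4, 10.06 ± 0.03 for the homeobox gene MNX1 and 9.70 ± 0.12 for INSM1, a zinc finger factor of endocrine differentiation. ISL1 and PDX1 thus exceeded the 95th percentile of all genes on every array. MYT1 (7.83 ± 0.05), RFX6 (7.68 ± 0.02) and ETV1 (6.63 ± 0.10) were dimmer. NEUROG3, which starts endocrine differentiation in progenitors, was above background on 0 arrays, together with PAX6, PAX4, NKX6-1, MAFA and LMX1A, and NEUROD1, NKX2-2, RFX3, FEV and ST18 were above on 1 or 2.

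Of 30 gut epithelial transcription factor genes, 18 were above background (60%, beside 49.9% of all genes), with a median of 7.28. The pioneer factor genes FOXA1, FOXA2 and FOXA3 had means of 12.36 ± 0.10, 11.60 ± 0.13 and 9.01 ± 0.07, with 2 further FOXA2 probes above background on 0 arrays. KLF5, a factor of dividing crypt cells, reached 10.84 ± 0.14 and KLF4, a factor of differentiated epithelium, 8.89 ± 0.01. ONECUT2 had a mean of 10.34 ± 0.29. ATOH1, which commits cells to the secretory lineages, reached 9.75 ± 0.16, and HES1, the Notch effector that represses it, 8.59 ± 0.16, so that both were above background on all 3 arrays. CDX2, ELF3, PROX1, MYB, SPDEF, HNF4G, GFI1 and HNF4A followed, from 8.32 down to 7.02. CDX1, the other caudal homeobox gene of the colon, was above on 0 arrays, and so were GATA4, GATA5, GATA6, SOX9, ISX, EHF, ESRP1, GRHL2 and CREB3L1.

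**Figure D3:**
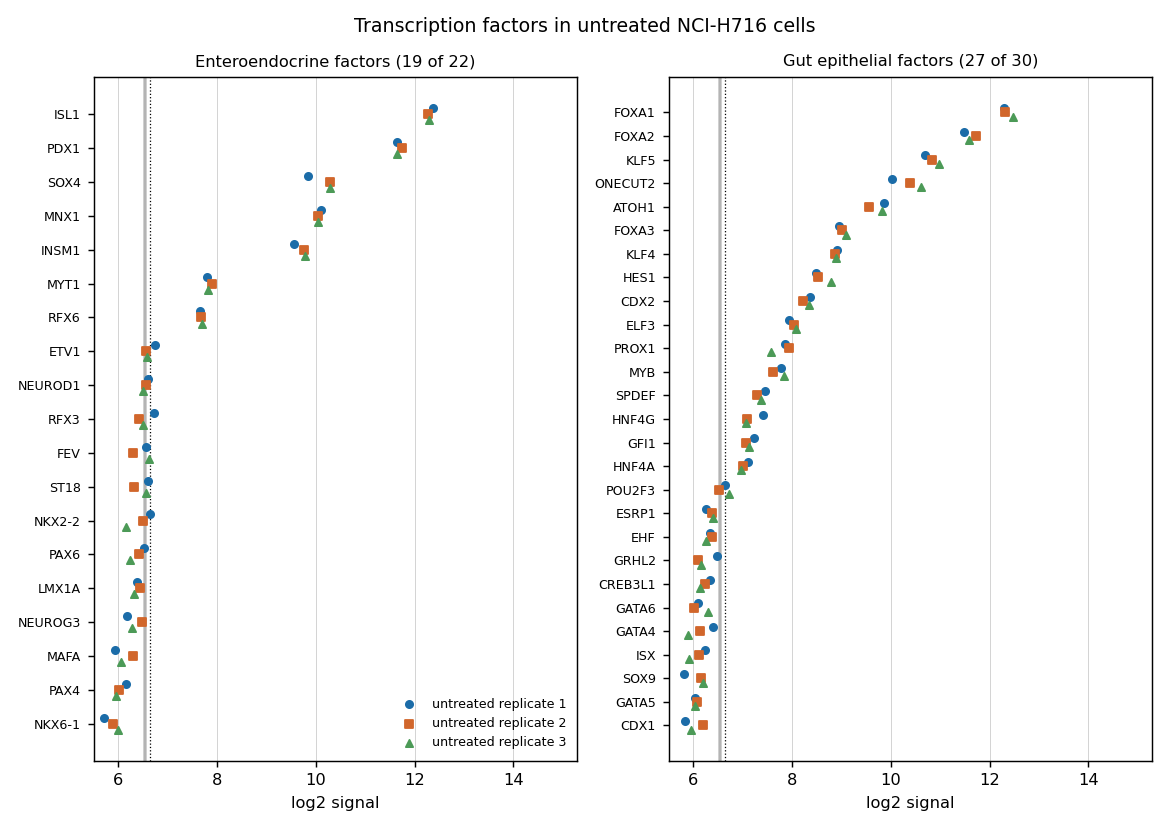
Log2 signal (x axis) of 19 of 22 enteroendocrine and 27 of 30 gut epithelial transcription factor genes on each of 3 untreated arrays, in order of their mean. The grey band (6.52 to 6.56) and the dotted line at the median of all genes (6.65) are as in the plot of secretory genes. ISL1, PDX1, FOXA1 and FOXA2 lie over 11 on all arrays, and PAX6, NEUROG3, CDX1 and the GATA genes lie at background.

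Epithelial structure genes were present in part. Of 25 adhesion and keratin genes, 10 were above background (40%, beside 49.9% of all genes). CDH17, the intestinal cadherin, was the brightest at 12.47, 12.43 and 12.54, whereas CDH1, the general epithelial cadherin, was above background on 0 arrays. KRT8 and KRT18, the keratin pair of simple epithelia, reached 9.25 ± 0.14 and 8.15 ± 0.13. The tight junction genes CLDN7 and TJP1, the adhesion gene EPCAM and the desmosome gene DSP lay between 8.60 and 8.36, followed by CEACAM1 (8.06 ± 0.12), JUP (7.54) and CEACAM6 (6.88). KRT20, the keratin of differentiated colonocytes, KRT7, KRT5, KRT14, CEACAM5, OCLN, CLDN1, CLDN2, CLDN3 and ST14 were above on 0 arrays.

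Absorptive genes were mostly at background. Of 33 enterocyte and brush border genes, 8 were above it (24.2%, beside 49.9% of all genes) and 21 were above on 0 arrays. The brightest was GUCA2B, uroguanylin, a secreted activator of the intestinal guanylate cyclase, at 12.90, 12.89 and 12.88, and its relative GUCA2A, guanylin, reached 9.31 ± 0.07. Their receptor gene GUCY2C had a mean of 6.99 ± 0.06, close to the floor but above it on all 3 arrays. The sucrase-isomaltase gene SI (10.14 ± 0.09), the brush border myosin gene MYO1A (9.60 ± 0.08) and DPP4 (8.0 ± 0.28), the peptidase that inactivates glucagon-like peptide 1, were above background, with CDHR5 and CDHR2 at 7.12 and 6.83. VIL1, LGALS4, FABP1, FABP2, FABP6, APOA1, APOA4, APOB, MTTP, SLC26A3, SLC5A1, SLC15A1, SLC2A2, SLC2A5, CA1, CA2, CA4, AQP8, ANPEP, MGAM and ESPN were above on 0 arrays.

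The goblet cell products AGR2 and TFF3 were among the brightest signals. Of 31 goblet, Paneth and tuft genes, 10 were above background (32.3%, beside 49.9% of all genes). AGR2, a disulfide isomerase needed for mucin folding, gave 14.60, 14.46 and 14.72, and TFF3, the goblet cell trefoil peptide, 13.78, 13.93 and 13.91. MUC13, a membrane mucin, LYZ, the lysozyme of Paneth cells, and SPINK4 had means of 11.36 ± 0.03, 11.33 ± 0.13 and 11.23 ± 0.10, and the other LYZ probe had a mean of 7.75. AGR2 and TFF3 were thus above the 99th percentile on every array, while MUC2, the secreted goblet cell mucin, was above background on 0 arrays. AGR3 (9.68 ± 0.32) and FCGBP (9.57 ± 0.20), a mucus protein, were also bright, and REG4, TFF1 and MUC6 lay near the floor at 6.81, 6.65 and 6.64. TRPM5, SH2D6 and GFI1B of tuft cells, DEFA6, REG3A and PLA2G2A of Paneth cells, and TFF2, MUC5B, MUC17, ZG16, ST6GALNAC1 and SPINK1 were above on 0 arrays.

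Most crypt stem cell genes in the list were at background while some Wnt-linked genes were not. Of 24 stem cell and Wnt feedback genes, 10 were above background (41.7%, beside 49.9% of all genes). BMI1, a polycomb gene, reached 10.67 ± 0.02, the Wnt inhibitor gene DKK1 10.28 ± 0.07, the adhesion receptor gene CD44 9.93 ± 0.13 and SP5, a Wnt-induced factor, 9.47 ± 0.09. The other probes of CD44 had means of 6.45 and 6.46 and were each above background on 1 array. CTNNB1, beta-catenin, had a mean of 8.40 ± 0.14 with 7 probes, of which 3 were above background on 0 arrays. LRIG1, LGR4, TCF7L2, ZNRF3 and AXIN2 followed, from 8.17 down to 6.59. LGR5, ASCL2, OLFM4, SMOC2, PROM1, EPHB2, EPHB3, NOTUM, NKD1, APCDD1 and TCF7 were above on 0 arrays.

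Within the fibroblast growth factor system 7 of 27 genes were above background (25.9%, beside 49.9% of all genes). FGF9, a ligand that binds FGFR3 and splice forms of FGFR2, was the brightest at 11.33, 11.49 and 11.63. FGFR3 gave 9.10, 9.18 and 9.24 on its brightest probe and FGFR2 the values above, so both were well over the floor on every array. The other FGFR3 probe had a mean of 6.57 and was above background on 1 array. FGFR1 and FGFR4 were above background on 0 arrays. KLB, the beta-klotho co-receptor, had a mean of 8.55 ± 0.03, FGFRL1, a receptor without a kinase domain, 7.74 ± 0.11, and the adaptor gene FRS3 7.19 ± 0.22. FGF23 lay near the floor (6.73) with its other probe above on 0 arrays. The ligand genes FGF1, FGF2, FGF3, FGF4, FGF5, FGF7, FGF8, FGF10, FGF19, FGF20, FGF21 and FGF22 and the genes KL and FGFBP1 were above on 0 arrays.

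Genes next to FGFR2 on chromosome 10 ranged from bright to not detectable over the floor. In RefSeq order, FGFR2 and the 10 measured genes on each side had a median of 7.45, and 13 of these 21 genes were above background, beside 49.9% of all genes. The brightest of the 21 was PRDX3, a mitochondrial peroxidase gene at the far end of the stretch, with 12.22, 11.80 and 12.08, which is named after its values were seen. Among 17 listed neighbours, NSMCE4A (11.34 ± 0.11), GRK5 (10.61 ± 0.04), PLEKHA1 (10.15 ± 0.13), SFXN4 (9.72 ± 0.14) and TIAL1 (9.0 ± 0.12) were brighter than FGFR2, which was itself listed. Another 7 (BAG3, RGS10, SEC23IP, TACC2, ATE1, INPP5F and MCMBP) were above background at lower means, and DMBT1, HTRA1, ARMS2 and BTBD16 were above on 0 arrays. DNA copy number was not measured.

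Of 44 other receptor tyrosine kinases, 15 were above background (34.1%, beside 49.9% of all genes) and 24 were above on 0 arrays, with a median of 6.44. MET, the hepatocyte growth factor receptor, was the brightest at 10.38, 10.52 and 10.45. RYK, a Wnt receptor, had a mean of 10.13 ± 0.10, RET, the receptor of the glial-derived factors, 9.36 ± 0.20 and EPHA4, an ephrin receptor, 9.0 ± 0.06. EGFR gave 8.99, 8.78 and 9.0 on its brightest probe and had 2 of 4 probes above background on 0 arrays. ERBB3 had a mean of 8.57 ± 0.12, ERBB2 7.02 ± 0.15, and DDR1, PTK7, EPHA3, TYRO3 and ROR1 lay between 7.80 and 7.12. LTK and KIT lay near the floor, both at 6.67. The insulin receptor gene INSR was above on 0 arrays, with MERTK, AXL, PDGFRA, PDGFRB, KDR, FLT1, FLT3, FLT4, TEK, TIE1, CSF1R, DDR2, ERBB4, NTRK2, NTRK3, MUSK, ROR2, ROS1, MST1R, EPHA1, EPHA7, EPHB1 and EPHB6. IGF1R, ALK, INSRR, EPHA2 and EPHB4 were above on 1 or 2 arrays.

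Receptors through which L cells sense nutrients and bile acids were rarely detectable. Of 25 genes 4 were above background (16%, beside 49.9% of all genes), with a median of 6.27. GNAT3, the taste G protein gustducin, gave 8.76, 8.12 and 8.32, with its other probe above background on 0 arrays. GPBAR1, the membrane bile acid receptor, gave 8.16, 8.44 and 8.19, and both of its probes were above background. NR1H4, the nuclear bile acid receptor, had a mean of 7.44 ± 0.02 and FFAR2, a receptor of short-chain fatty acids, 7.01 ± 0.21. Both bile acid receptors were thus above the floor on every array. The fatty acid and lipid receptor genes FFAR1, FFAR3, FFAR4 and GPR119, the sweet and umami taste receptor genes TAS1R1 and TAS1R3, the calcium sensor gene CASR, the glucose transporter gene SLC5A1, the peptide transporter gene SLC15A1, PLCB2, TRPM5, GPR35, GPR142, HCAR1 and HCAR2 were above on 0 arrays.

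Of 55 measured receptors for hormones and neurotransmitters, 12 were above background (21.8%, beside 49.9% of all genes) and 34 were above on 0 arrays. PTGER2 and PTGER4, prostaglandin E2 receptors that raise cyclic AMP, had means of 9.95 ± 0.13 and 8.87 ± 0.03. SSTR2, a somatostatin receptor, gave 9.88, 10.20 and 9.72, and SSTR1 7.82, 8.36 and 8.20. The adenosine receptor gene ADORA2B (8.76 ± 0.15), the muscarinic receptor gene CHRM3 (8.64 ± 0.02), the vasoactive intestinal peptide receptor gene VIPR1 (8.28 ± 0.10) and the neurotensin receptor gene NTSR1 (8.01 ± 0.18) followed. Both a ligand gene and a receptor gene were above background for somatostatin, neurotensin and FGF9. The leptin receptor gene LEPR (7.72), OXTR, ADRA2A and GABBR1 were dimmer. Receptors of the incretin and glucagon family (GLP1R, GLP2R, GIPR, GCGR and SCTR) were above on 0 arrays, as were SSTR3, SSTR4, SSTR5, CCKAR, CCKBR, NPY2R and GALR1.

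**Figure D4:**
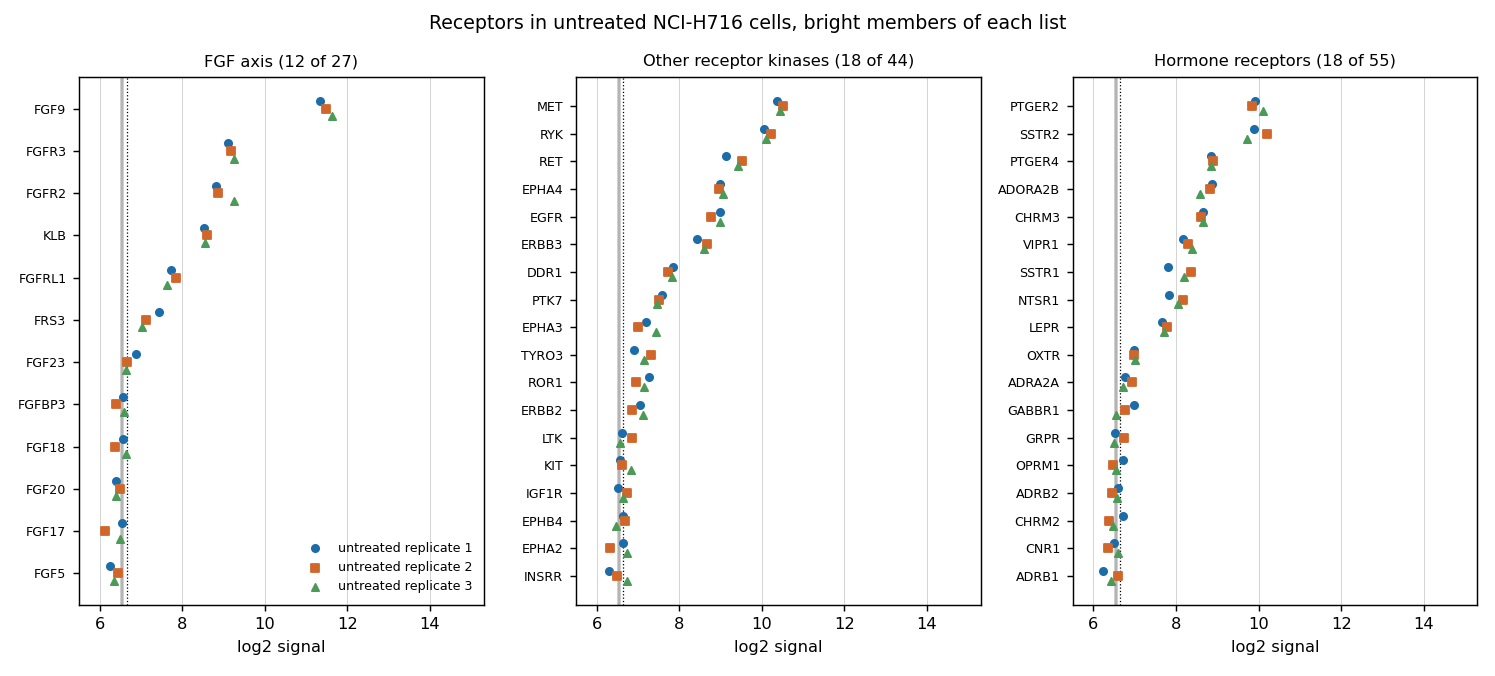
Log2 signal (x axis) of the 12 brightest of 27 genes of the fibroblast growth factor system, 18 of the 44 other receptor tyrosine kinases and 18 of 55 hormone and neurotransmitter receptors on each of 3 untreated arrays. The grey band (6.52 to 6.56) separates genes above background on 0 arrays from those above on all 3, and the dotted line marks the median of all genes (6.65). FGF9 at 11.48 is the rightmost gene of the plot, and MET, RYK, PTGER2 and SSTR2 follow near 10.

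Nuclear receptors were detected at about the share of all genes, with 17 of 37 above background (45.9%). NR2F1, an orphan receptor, stood highest at 11.97, 11.93 and 11.98, and its relatives NR2F2 and NR2F6 had means of 9.60 ± 0.12 and 9.04 ± 0.22. PPARG, a lipid-activated receptor of differentiated colonocytes, gave 10.30, 10.30 and 10.29, with 2 of its 4 probes above background on all 3 arrays and the other 2 on 0. RXRB and RXRA, the shared dimer partners, reached 9.69 ± 0.11 and 8.18 ± 0.01, ESRRG 8.38 ± 0.04 and the retinoic acid receptor gene RARA 8.23 ± 0.07. NR3C2, ESRRA, NR1H3, RARB, NR1H4, NR4A2, THRA, PPARD and ESR1 lay between 7.73 and 6.67. VDR, the vitamin D receptor, NR3C1, the glucocorticoid receptor, PGR, ESR2, PPARA, NR5A2 and NR0B2 were above on 0 arrays.

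Beyond the hormones, 24 of 60 genes of secreted growth factors and plasma proteins were above background (40%, beside 49.9% of all genes). The cytokine gene MIF (13.56 ± 0.19), the protease inhibitor gene CST3 (13.33 ± 0.11), the lysosomal and secreted protein gene PSAP (13.06 ± 0.08), the heparin-binding growth factor gene MDK (12.97 ± 0.11) and the metalloproteinase inhibitor gene TIMP1 (12.68 ± 0.07) were the brightest. The other probes of MDK were above background but far dimmer, with means from 7.93 down to 7.17. ALB, albumin, the main plasma protein of liver, gave 11.93, 11.83 and 11.82, and its other probe had a mean of 10.64, so that both probes were far above the floor. SERPINE2 had a mean of 11.97 ± 0.05 and VEGFB 11.63 ± 0.16. Of 18 hepatocyte markers 5 were above background (27.8%, beside 49.9% of all genes): ALB, AFP (8.0 ± 0.14), APOH (7.45 ± 0.17), FGB (7.13 ± 0.18) and TTR (6.87 ± 0.13). HP, TF, AHSG, APOA1, APOA2, APOC3, FGG, CYP2E1 and TAT were above on 0 arrays. The EGF-family ligand genes AREG, EREG, TGFA, BTC and HBEGF and the factors TGFB1, TGFB2, BMP7, IGF1, INHBA, IL6 and CCL20 were also above on 0 arrays.

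Several genes of other lineages were bright. VIM, the intermediate filament gene of mesenchymal cells, gave 13.67, 13.62 and 13.70, with its other probe at a mean of 12.82, and LGALS1 reached 12.15 ± 0.12. CDH11 (9.65 ± 0.14), TGFBI, CCN2, TAGLN and SNAI2 completed the 7 of 18 mesenchymal genes above background (38.9%, beside 49.9% of all genes). In contrast, CDH2, FN1, SPARC, ACTA2, MMP2, MMP14, SNAI1 and TWIST1 were above on 0 arrays. Of 12 fibroblast markers 5 were above background (41.7%, beside 49.9% of all genes). The surface peptidase gene FAP reached 11.31 ± 0.20, LUM 10.71 ± 0.06, COL3A1 10.38 ± 0.09 and POSTN 8.42 ± 0.13, and COL1A2 lay near the floor at 6.62 ± 0.06. COL1A1, COL6A3 and FBLN1 were above on 1 or 2 arrays, and DCN, THY1, PDGFRA and PDGFRB on 0, so the matrix and fibroblast genes were divided.

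Neuronal genes were above background in 9 of 21 cases (42.9%, beside 49.9% of all genes), with a median of 6.65 equal to that of all genes. STMN2, a microtubule regulator, reached 12.28 ± 0.13, the neuronal tubulin gene TUBB3 11.42 ± 0.07 and UCHL1, a ubiquitin hydrolase used as a neuroendocrine marker, 10.63 ± 0.08. The enzyme of GABA synthesis GAD1 (9.88 ± 0.06), NCAM1 (9.79 ± 0.08), DCX (9.31 ± 0.05), ENO2 (8.86 ± 0.06), MAP2 and NEFH followed. NEFM, INA, ELAVL2 and GRIA2 were above on 0 arrays, in addition to the neuronal markers named above.

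Among 21 blood cell markers 7 were above background (33.3%, beside 49.9% of all genes). These were the lysosomal gene CD68 (11.51 ± 0.26), the globin genes HBA1 (11.02 ± 0.05) and HBB (7.04 ± 0.07), CD79B (9.05), CD14 (7.62), CORO1A (7.01) and CD79A (6.66). The signal of ESAM, the 1 endothelial gene of 10 above background, was 6.72 ± 0.13, and MYL2 was the 1 muscle gene of 14, at 7.35 ± 0.02. All 10 pancreatic acinar genes (among them PTF1A, CPA1 and PRSS1) and all 9 lung and thyroid genes (among them NKX2-1, SFTPC and TG) were above on 0 arrays.

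Of 18 genes of antigen presentation 12 were above background (66.7%, beside 49.9% of all genes). B2M, the light chain of class I molecules, gave 14.17, 13.87 and 13.83. TAP1, HLA-E, HLA-B and HLA-F lay between 9.54 and 9.33, and HLA-C (7.74), HLA-G (7.70) and TAP2 (6.62) were dimmer. Near-identical class I transcripts can bind the same probe, so the split between them is uncertain. In class II, HLA-DMA (9.15 ± 0.06) and HLA-DRA (7.84 ± 0.09) were above background, while CIITA, CD74, HLA-DRB1, HLA-DQA1, HLA-DPA1 and HLA-DPB1 were above on 0 arrays. Of 20 cancer-testis antigens 3 were above background (15%, beside 49.9% of all genes). All 3 were of the MAGE family (MAGEA6 9.38, MAGEA3 8.71 and MAGEA1 7.01), whose members are closely alike in sequence.

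Of the 100 brightest probes, 46 had no named gene (43 of them with LOC names in the file), so the ranking covers named genes only. The 30 brightest of these had means between 14.71 and 14.99. Among them, in order, were F2R, ORC6, ANXA2P2, PVT1, FAM177A1, FARSB, RRP7BP, LAIR1, PDCD7, LILRB3, ZNF674, RPL41, RPS27A, MSH3, TMSB4X, ROCK2, RPS29, RPLP2, RN7SL1, PPIAL4A, CCR6, RPLP1, AKR1C3, NDUFB9, VGF, EEF1A1, OAZ1, ITIH5 and PCLAF. Housekeeping products such as ribosomal proteins, the elongation factor gene EEF1A1 and the thymosin gene TMSB4X are made in large amounts by most cells, whereas the immune receptor genes LAIR1, LILRB3 and CCR6 and the thrombin receptor gene F2R are not known as housekeeping genes. For 6 of the 30 (among them F2R, FARSB, RRP7BP, CCR6 and ITIH5) another probe of the same gene was above background on 0 arrays. The other probes of LAIR1 and LILRB3 had means of 6.51 and 6.57, near the floor, and were not above it on all 3 arrays. Of the 20 genes with several probes, 12 had every probe above background on all 3 arrays. When each gene took the mean of its probes, 11 of the 30 stayed among the 30 brightest: ANXA2P2, PVT1, ZNF674, RPS27A, RPLP2, RN7SL1, PPIAL4A, AKR1C3, NDUFB9, VGF and OAZ1. All of these but RPS27A have 1 probe, so averaging could not change their values. Of the 20 genes with several probes, only RPS27A stayed. Among the 100 brightest genes, 23 encoded cytosolic ribosomal proteins, 24 had another probe above background on 0 arrays, and 3 belonged to the lists above (VGF, AGR2 and GCG).

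A stretch of neighbouring genes on the long arm of chromosome 8 held the brightest windows of neighbouring genes. Genes were put in RefSeq order, in 19891 windows of 11 neighbouring measured genes, with a median of 6.72 over all windows. The highest median, 13.75, was shared by overlapping windows, from that of TMEM65 to TRIB1 to that of MTSS1 to PVT1. All 8 windows with a median over 13 lay there, and the brightest windows elsewhere had medians of 11.34 around MOB1A on chromosome 2 and 11.06 around BUD31 on chromosome 7. This stretch was chosen after the values were seen, and its brightness is given as a description.

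From NDUFB9 to PVT1 all 12 measured genes were above background, and 8 of them lay over the 99th percentile of all genes. PVT1, a long noncoding RNA gene next to MYC, gave 15.01, 14.92 and 14.76. NDUFB9, a subunit of respiratory complex I, had a mean of 14.76 ± 0.08, TRIB1, a pseudokinase gene, 14.50 ± 0.12, SQLE, an enzyme of cholesterol synthesis, 14.47 ± 0.02 and MTSS1, an actin-binding protein gene, 14.41 ± 0.04. WASHC5, NSMCE2 and LRATD2 followed at 13.96, 13.75 and 13.44. MYC itself gave 11.67, 11.82 and 11.70 and lay at a percentile of 96.0, and the second probes of MYC, MTSS1 and SQLE, with means of 11.22, 12.45 and 13.23, were bright as well. ZNF572 (8.37), SRRM1P1 (7.79) and POU5F1B (7.11) in the same stretch were far dimmer.

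The 12 genes had a median of 13.85. NDUFB9 and PVT1 were taken as the ends because they were the outermost genes over the 99th percentile, so dimmer flanks follow from that choice and are given as a description. Just before NDUFB9 lay TATDN1 (9.51 ± 0.07) and TYW2 (8.34 ± 0.12), both above background. The measured gene between TATDN1 and TYW2 was above background on 0 arrays, with a mean of 5.85 ± 0.10. The probe named for MIR1204, which lies in PVT1, gave a mean of 12.92 ± 0.08, and the probes named for MIR1205, MIR1206, MIR1207 and MIR1208 were above on 0 arrays. What sets the brightness of this stretch was not tested.

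**Figure D5:**
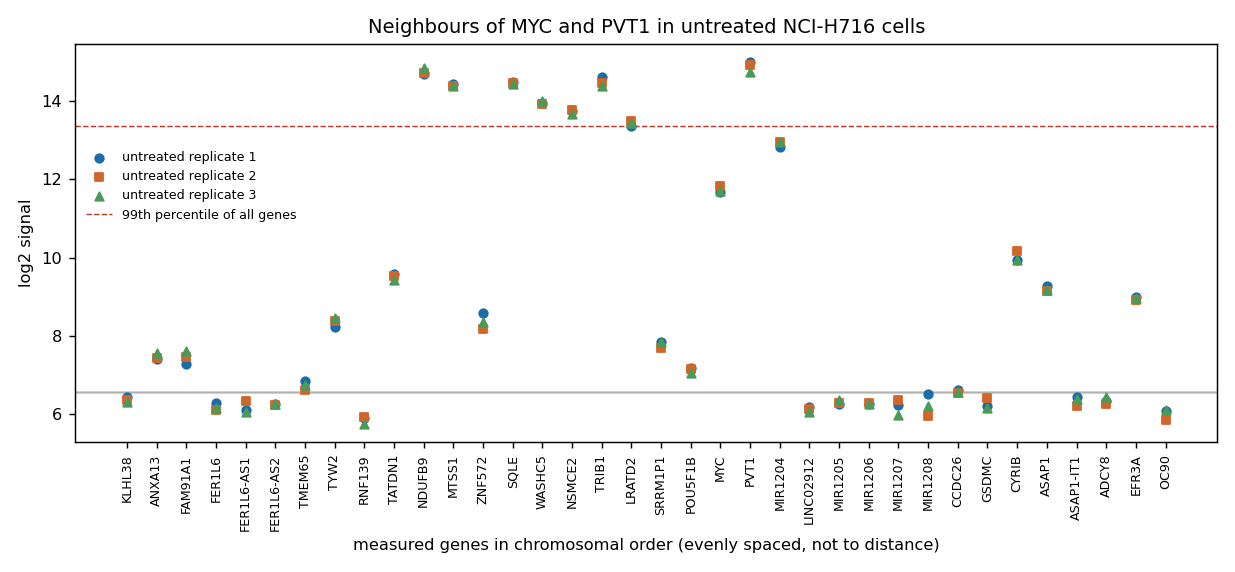
Log2 signal (y axis) of 36 measured genes around MYC on each of 3 untreated arrays, in chromosomal order and evenly spaced, so that the x axis shows order and not distance. The dashed line is the 99th percentile of all named genes (13.38) and the grey band the level of background. Of the 12 genes from NDUFB9 to PVT1, 8 have means over the dashed line, and the ends were chosen from these values.

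Several families of narrow expression lay almost wholly at the level of background. Of 370 olfactory receptor genes 8 were above background (2.16%), of 25 bitter taste receptors 0 and of 76 hair keratin-associated proteins 2. Of 34 beta-defensins 1 was above it (DEFB1, near the floor at 6.73) and of 13 interferon alpha genes 0. The medians of these families lay between 6.18 and 6.19. In contrast, 76 of 77 cytosolic ribosomal protein genes were above background with a median of 13.63, 42 of 46 NDUF genes of respiratory complex I with a median of 10.51 and 35 of 39 proteasome subunit genes with a median of 11.13. These shares frame the 49.9% of all genes above background.

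The 3 arrays rarely differed. The 10 genes above background with the largest SD were TELO2, MEPCE, CDC42, SSX2IP, TDP1, PRR32, PLXND1, CTBP2, PPP3R1 and LRRFIP1. TELO2, a kinase chaperone gene, gave 7.5, 7.12 and 9.05 (SD 1.03), and the SDs of the other 9 ran from 0.58 to 0.39. None of the 3 arrays accounted for all 10, the array farthest from the median being replicate 1 for MEPCE, SSX2IP and CTBP2, replicate 2 for CDC42, TDP1, PRR32, PLXND1 and LRRFIP1, and replicate 3 for TELO2 and PPP3R1. Among genes above background, 95% had an SD under 0.24.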

How the data were processed

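Total RNA of NCI-H716 cells was isolated, amplified to biotin-labelled cRNA and hybridized to an Illumina bead array, per the labels. The first deposited table holds the raw probe intensity of 47230 probes on 9 arrays, exported with BeadStudio per the submitters' processing notes (its version was not given by the sources used), with neither background subtraction nor a detection p. The authors' other deposited table is on the log2 scale. Its values differed by at most 0.005 from quantile-normalized log2 intensities computed here and served only for that check.

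Background correction (normexp, offset 50), quantile normalization and the log2 transform were applied to the 3 untreated arrays alone, in R 4.3.3 with limma 3.58.1. Lists and figures were made in Python 3.11.15 with pandas 2.3.3. A detection p was planned as the measure of background where given. As the table holds none, the planned fallback was used, a floor per array at the mode of raw log2 signals plus 1.645 SDs of the lower side (7.07, 7.12 and 7.05). On the 3 arrays, 39.8%, 39.2% and 41.5% of probes lay above it, and of 464 olfactory receptor probes 6.25%, 5.39% and 6.90%. No pair of untreated arrays was identical (0 pairs).

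Current symbols and the order of genes came from RefSeq (GRCh38.p14): 27036 probes bore a current symbol, 4626 a synonym, 12244 only the name in the file, 3270 no name and 54 a date. Each gene took its brightest probe, and 1802 of the 4210 genes above background with several probes had another above on 0 arrays. The genome build of the probes is not given in the sources used here, so no probe position is stated. The floor and ranking steps were tested on simulated data.

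No comparison was made and no test was run. Alternatives were normalization over all 9 arrays, no background correction, an offset of 16, cyclic loess, a common median, 2 other floors, the mean over probes and leaving out each array. The naming rule took the 30 brightest genes, list members above background with up to 8 values each, the 4 label markers, the 10 most variable genes and members whose probes disagree, passing over LOC and HS. names. A few genes that are counted are not reported here by name. Further members and gene families are named as examples chosen after their values were seen. The members and lists were chosen with earlier results of these data known.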

Additional observations from a re-analysis of the deposited data

How the results depend on the processing

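No paired analysis was possible because the results describe 1 group and come from no test. The count of genes above background, 10090, was 9069 with the floor at the mode plus 3 lower-side SDs, 9926 with a floor from olfactory receptor probes and 9628 with the mean over probes, and 10275 to 10389 when 1 array was left out, where 2 arrays had to pass. The corresponding counts of list members were 223, 246, 235 and 261 to 269, beside 256. Normalization over all 9 arrays, no background correction, the offset of 16, cyclic loess and a common median moved neither count, since the floor is set on raw signals. With the mean over probes the brightness percentiles were 99.1 for CHGA, 99.9 for GCG, 83.9 for FGFR2 and 77.9 for CDX2, each of which has 1 probe. In that setting 11 of the 30 brightest genes stayed in that group, and all of these but RPS27A also have 1 probe. When 1 array was left out the percentiles ran from 98.3 to 98.5, 99.6 to 99.7, 77.9 to 79.7 and 72.4 to 73.4, and 27 to 29 of the 30 stayed. Of 330 recomputed list counts 329 stayed within 1.5 times, and the endothelial count was 0 in place of 1 at the stricter floor. Settings that changed only the normalization could move list counts only through the choice of probe, as calls rest on raw signals. All 44 recomputed marker calls were kept, but each marker has 1 probe, so only the other floors and leaving out arrays could change them. The brightest window of neighbouring genes lay on chromosome 8 in 12 of 12 settings, an analysis added after seeing the data, with medians of 13.65 over all 9 arrays, 13.44 with the mean over probes and 10.02 in windows of 21 genes. Signals near the floor limit what can be said of single genes such as AXIN2, KIT or COL1A2.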

Other observations

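Gene families outside the lists, chosen after their values were seen, held some bright members, given with the share of each family above background, beside 49.9% of all genes, and its median, beside 6.65. Of 13 aldo-keto reductase genes, which reduce steroids, bile acid precursors and aldehydes, 9 were above background (69.2%, median 11.08), led by AKR1C3 (14.77 ± 0.07), AKR1D1 (14.64 ± 0.07), AKR1C4 (13.71 ± 0.23) and AKR7A2 (12.71 ± 0.08). Another AKR1D1 probe was above on 0 arrays, and the AKR1C genes are alike in sequence, so the split among them is uncertain. Of 19 aldehyde dehydrogenase genes 14 were above background (73.7%, median 8.84), led by ALDH9A1 (12.59 ± 0.06) and ALDH1A1 (11.85 ± 0.15), an enzyme of retinoic acid synthesis. Of 22 UDP-glucuronosyltransferase genes, which make steroids and drugs water-soluble, 9 were above background (40.9%, median 6.39), and the 6 brightest, UGT2B7 (11.97), UGT2B11 (11.34), UGT2B17 (10.61), UGT2B28 (10.35), UGT2B10 (10.17) and UGT2B15 (8.74), were all closely related UGT2B genes. Of 56 cytochrome P450 genes 14 were above background (25%, median 6.25), with CYP1B1 (10.63 ± 0.22) and the cholesterol synthesis gene CYP51A1 (10.62 ± 0.15) the brightest.

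Of 39 HOX genes, which mark position along the body axis, 22 were above background (56.4%, median 6.91), led by HOXA5 (12.57 ± 0.09), HOXA9 (11.98 ± 0.16), HOXA10 (11.59 ± 0.05) and HOXC6 (11.28 ± 0.13). Of 44 collagen genes 10 were above background (22.7%, median 6.34), with COL14A1 (13.06 ± 0.13) brighter than the fibrillar collagen genes COL5A2 (10.80 ± 0.07) and COL3A1. Of 22 claudin genes 6 were above background (27.3%, median 6.37), with CLDN11 (11.99 ± 0.05), known from myelin and testis, and CLDN15 (10.62 ± 0.14), a pore-forming claudin of the intestine, the brightest.

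In 60 of the 264 list members with several probes, 1 probe was above background on all 3 arrays and another on 0. Beside those named in the report, these included BMP4, CACNA1C, CADPS2, CD14, CD79A, CD79B, CDHR5, CPLX2, DCX, DDR1, DSP, EPHA3, ERBB2, ERBB3, ESRRG, FCGBP, GABBR1, HLA-C, HNF4A, JUP, KCNH2, KCNMA1, KIT, LEPR, LTK, MAGEA1, MAGEA3, MAP2, MUC6, NCAM1, NTS, ONECUT2, PDGFA, PPARD, RAB27A, RARA, ROR1, SYN1, SYT7, TAGLN, TAP2, TAPBP, THRA, VEGFA and VEGFB, and on chromosome 10 ATE1, INPP5F, RGS10, SFXN4, TACC2 and TIAL1. Their calls rest on the brightest probe.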
